A study of Homo sapiens with 27 samples.

Results

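Contact-inhibited quiescence was compared with proliferation at the level of mRNA in IMR90, a diploid fibroblast line from human fetal lung, labelled here as wild type. The comparison used 5 of the 27 libraries of the series: 3 RNA-seq libraries of quiescent cells and 2 of cycling cells, chosen by their titles. Cycling cells were untreated and were harvested at 40 to 60% confluency. Quiescent cells are labelled as contact-inhibited, the arrest of division in cells that touch each other. For how long they had been confluent is not stated in the labels. Both states were grown in high-glucose DMEM with 10% FBS, so serum was present in both, and RNA of every state was taken from a lysate made with Triton, per the labels' protocols. Another 8 RNA-seq libraries entered the same statistical fit: 3 of cells made senescent by 15 Gy of ionizing radiation and harvested after 10 days, 3 of cells made senescent by 50 µM etoposide given 3 times over 10 days, and 2 of cycling cells given 25 nM thapsigargin for 3 h. Each library is from the same line, so the results describe 1 donor's cells.

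Quiescence is a reversible exit from the cell cycle. In contact-inhibited fibroblasts, cell-to-cell contacts lower growth signalling, CDK inhibitors hold back the G1 kinases, and the RB family keeps E2F factors off. Genes for DNA synthesis are classically switched by E2F, while genes for mitosis are switched by the DREAM and MuvB complexes through a promoter element called the CHR and by NF-Y through CCAAT boxes. Quiescent fibroblasts are also known to stay metabolically active and to secrete matrix. Senescence, in contrast, is a lasting exit that follows damage such as that made by radiation or etoposide.

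Gene counts summed to between 20.6e6 and 29.3e6 per library over the 5 libraries, and 13295 protein-coding genes had enough counts to be tested. All 11 fibroblast markers were present in both states, with a summed level of 10417 to 14881 CPM in cycling and 9134.5 to 12415 CPM in quiescent libraries. For marker sums CPM is counts per 1e6 protein-coding counts without TMM scaling. For single protein-coding genes CPM is counts per 1e6 counts after TMM scaling. Immune markers summed to at most 0.443 CPM in a cycling and 0.304 CPM in a quiescent library. The 10 epithelial markers summed to 109.8 to 141.7 CPM in cycling and 67.8 to 108.2 CPM in quiescent libraries, with 4 of them at 0 in each state. The 3 quiescent libraries were less alike than the cycling pair. Quiescent library 3 had 40.6% of its reads unmapped against 31.3 to 32.8% in the other 4, and cycling library 2 had 33.4% of its reads mapping to several places against 9.43 to 20.8% in the others. The part of these differences in the results was not tested. Values in parentheses after a gene are its log2 fold change, quiescent minus cycling, ± SE, from edgeR's quasi-likelihood test, and a gene was called at a Benjamini-Hochberg adjusted p under 0.05. The labels do not say whether replicates were separate cultures, so p-values measure the spread between these libraries, which may be technical. Counts are relative to each library, so fewer cells in a phase and less RNA per cell cannot be told apart.

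In all, 2071 genes (15.6% of those tested) were called between the states: 690 (5.19%) were higher in quiescent cells and 1381 (10.4%) were lower. A change of at least 2-fold was called for 733 genes (5.51%). The changes were small for most genes, with a median log2 fold change of 0.67 among the higher and -0.91 among the lower calls, and 42 higher and 31 lower calls reached 2 or more on the log2 scale. Every higher call and 1379 of the 1381 lower calls had all quiescent libraries on 1 side of both cycling libraries. With all gene types in the fit, 732 of 16999 genes (4.31%) were called higher and 1465 (8.62%) lower. A separation of all libraries was found for 20.6% (higher) and 21.7% (lower) of all genes tested. The number of calls rested on both cycling libraries: 707 genes were called without cycling library 1 and 890 without cycling library 2, and 99 of the 233 called genes that are named here by a fixed rule stayed called under all 14 alternatives. For genes named below, and for list counts that reach 4 with or without a library and moved by over 1.5 times, each library that changed the call or the count when it was left out is given with the value without it. A fit without 1 cycling library assumes that the remaining one varies like the other groups. Counts of calls in each list below are to be read beside the 5.19% higher and 10.4% lower over all genes tested.

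The largest changes are given among called genes with separated groups and a mean of at least 5 CPM in the higher group. Some called genes below that level, such as C3 and MFAP5, changed by more. Within these limits the largest rise was in TNFSF18, which encodes the ligand of the co-stimulatory receptor GITR. Its level was 0.692 and 0.518 CPM in cycling and 5.86, 11 and 11.5 CPM in quiescent cells (log2 fold change 3.93 ± 0.44, adjusted p = 0.00029). ADH1B, an alcohol dehydrogenase that also acts on retinol, stood at 1.75 and 5.91 CPM in cycling and 45.3, 28.8 and 40.6 CPM in quiescent cells (log2 fold change 3.37 ± 0.60, adjusted p = 0.00267). FMO2, a flavin monooxygenase of lung that oxidizes foreign compounds, stood at 1.68 and 1.45 CPM in cycling and 12.6, 11.9 and 15.7 CPM in quiescent cells (log2 fold change 3.08 ± 0.34, adjusted p = 0.000284). All 3 were low in both cycling libraries and, as the choice of these genes required, higher in each quiescent library. FMOD, the collagen-binding proteoglycan fibromodulin, had a level of 1.71 and 1.40 CPM in cycling and 4.71, 8.41 and 9.82 CPM in quiescent cells (log2 fold change 2.28 ± 0.36, adjusted p = 0.00136). IL16 (1.96 ± 0.30) and IL32 (1.86 ± 0.33) encode secreted immune mediators, and SETBP1 (1.86 ± 0.29) encodes a nuclear protein that binds SET. CCDC102B (2.13 ± 0.27) and CCDC68 (2.02 ± 0.28) encode coiled-coil proteins. The calls of these 9 genes held without any 1 of the 5 libraries. EGR2, an immediate early zinc finger factor (2.69 ± 0.66), TYRP1, an enzyme of melanin synthesis (2.61 ± 0.59), and GPX3, a secreted glutathione peroxidase (1.85 ± 0.38), complete the 12 largest rises. The calls of EGR2 and TYRP1 ended without cycling library 1 (adjusted p from 0.0654 to 0.0789) and those of EGR2, TYRP1 and GPX3 without cycling library 2 (adjusted p from 0.067 to 0.128).

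Within the same limits, the largest falls included both proliferation genes and cell-surface genes. OXTR, the oxytocin receptor, fell from 2 high cycling values to 3 low quiescent ones: 24.7 and 18.8 CPM in cycling and 3.73, 3.58 and 2.29 CPM in quiescent cells (log2 fold change -2.76 ± 0.22, adjusted p = 7.31e-05). LY6K, a GPI-anchored surface protein, behaved alike, with 5.03 and 5.08 CPM in cycling and 0.373, 1.13 and 0.684 CPM in quiescent cells (log2 fold change -2.79 ± 0.39, adjusted p = 0.000842). GGH, the enzyme that trims the glutamate tail of folates, stood at 38.8 and 32.7 CPM in cycling and 3.55, 6.37 and 7.21 CPM in quiescent cells (log2 fold change -2.65 ± 0.30, adjusted p = 0.00029). In each of the 3 the groups did not overlap, as the choice of these genes required. GPRC5A, an orphan receptor of the retinoic acid-induced family (-2.14 ± 0.25), CPA4, a secreted carboxypeptidase (-2.06 ± 0.24), DIO2, the deiodinase that activates thyroid hormone (-1.96 ± 0.25), and PSG5, a glycoprotein known from pregnancy (-1.91 ± 0.20), followed. ADCY7, an adenylate cyclase (-1.88 ± 0.29), GALNT15, which starts O-linked sugar chains (-2.04 ± 0.23), and ARL6IP1, a shaper of ER membranes (-2.04 ± 0.22), also fell. PCLAF, which binds PCNA at replication forks (-1.89 ± 0.35), and CDKN3, a phosphatase of cyclin-dependent kinases (-1.88 ± 0.19), were the cell cycle genes among the 12 largest falls. All 12 calls held without any 1 of the 5 libraries.

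**Figure D1:**
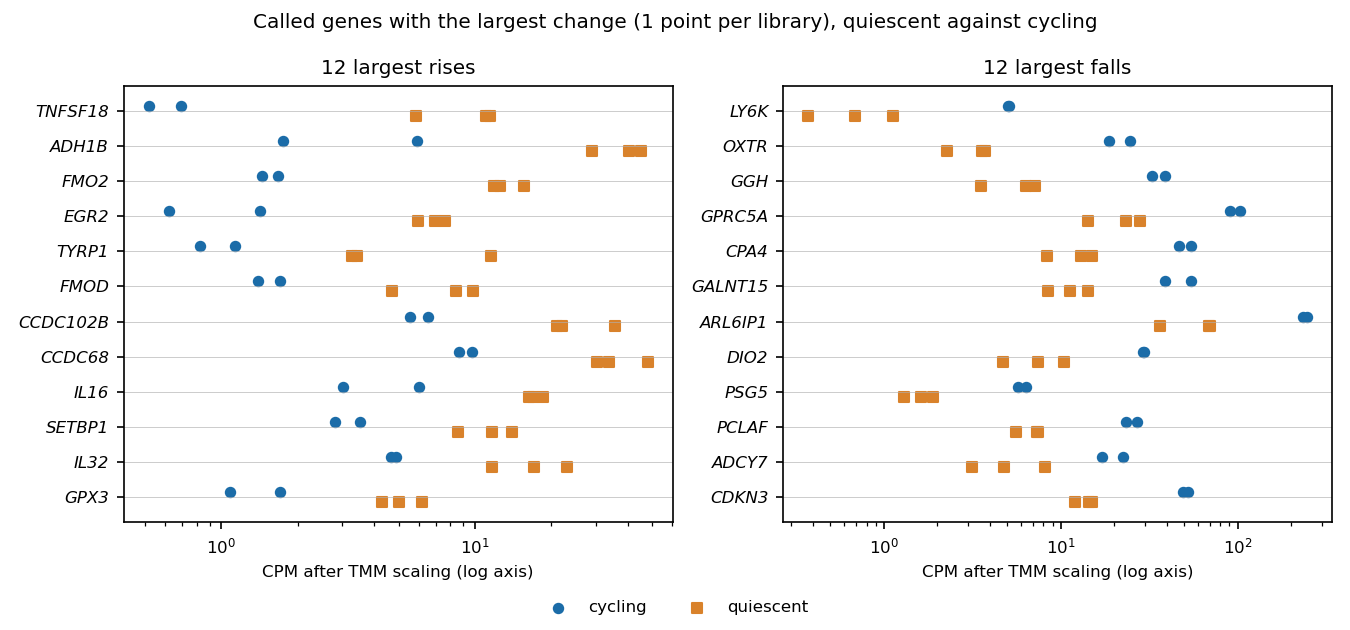
Level in CPM (log axis) of the 12 genes with the largest rise and the 12 with the largest fall in quiescent cells, 1 point per library, for the 2 cycling and 3 quiescent libraries. The genes were taken from called genes with a mean of at least 5 CPM in the higher group. For each of the 24 genes the 3 quiescent points lie on 1 side of both cycling points, as the choice of the genes required.

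Mitotic genes fell as a group. Of 52 tested genes of mitosis and the kinetochore, the plate that ties chromosomes to the spindle, 47 (29 without cycling library 1) were called lower and none higher, with a median log2 fold change of -1.21, against 10.4% called lower and a median of 0.02 over all genes tested. CCNB2, a B-type cyclin that drives entry into mitosis, had a level of 90.5 and 89.2 CPM in cycling and 26.1, 34.8 and 25.9 CPM in quiescent cells (log2 fold change -1.63 ± 0.16, adjusted p = 0.000188). CENPA, the histone that marks centromeres, stood at 25.9 and 24.4 CPM in cycling and 7.06, 10.7 and 7.09 CPM in quiescent cells (log2 fold change -1.60 ± 0.21, adjusted p = 0.000594). Quiescent library 2 held the highest of the 3 quiescent values of both genes, and still lay below both cycling libraries. KIF20A, a kinesin of cytokinesis (-1.73 ± 0.18), DLGAP5, a spindle assembly factor (-1.56 ± 0.23), MYBL2, the B-MYB factor that works with MuvB (-1.60 ± 0.22), CENPF, an outer kinetochore protein (-1.49 ± 0.27), and TOP2A, the topoisomerase that untangles sister chromatids (-1.21 ± 0.20), fell likewise. These 7 calls held without any 1 library. MKI67, the gene of the Ki-67 proliferation antigen, was not called: it stood at 144 and 166 CPM in cycling and 41.3, 148 and 53.3 CPM in quiescent cells, and quiescent library 2 lay within the cycling range (log2 fold change -0.94 ± 0.43, adjusted p = 0.17). Without quiescent library 2 MKI67 was called lower (-1.70, adjusted p = 0.00347). BUB3, a checkpoint protein and 1 of the 5 members not called, had a log2 fold change of -0.38 ± 0.14, adjusted p = 0.0903.

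The promoters of these genes were read for the elements that classically serve mitotic and S-phase genes, in the 250 bases before the annotated start, on both strands. Of the 47 mitosis genes called lower, 40 had a promoter in the RefSeq table. The CHR (TTTGAA) was found in 22 of them (55%), against 8.74% of the 10827 promoters of tested genes and 13.3% of all 35116 promoters of the table. CCAAT was found in 28 (70.0%), against 35.1% of tested genes and 32% of all promoters. Both together were found in 45%, against 3.53% of tested genes and 4.69% of all promoters. An E2F site, written here as TTTGGCGC, TTTCCCGC or TTTGGCGG, was found in 2 (5%) of the mitosis promoters. Of the DNA replication genes called lower, 16 had a promoter in the table. Among them 8 (50.0%) held an E2F site, against 3.86% of tested genes and 2.44% of all promoters, 0 held a CHR, and 9 (56.2%) held CCAAT. A match is a description of the letters and not a shown site of binding. Shown are 2 of the mitosis promoters that hold the CHR, of CCNB2 (chr15:59104896-59105145, plus strand) and CENPA (chr2:26785806-26786055, plus strand), and that of the replication gene GINS2 (chr16:85688955-85689204, minus strand), in GRCh38.p14 as RefSeq gives them, 5′ to 3′ along the gene, up to the base before the start. Capitals mark the CHR and the CCAAT boxes (ATTGG where the box is on the other strand) in CCNB2 and CENPA and the E2F site in GINS2. Other matches, an E2F site in CENPA and a CCAAT box in GINS2, were left in lower case. The CHR lay 29 bases before the start in CCNB2, which has 4 CCAAT boxes, and 18 bases before it in CENPA, which has 2. In GINS2 the E2F site lay 31 bases before the start.
CCNB2: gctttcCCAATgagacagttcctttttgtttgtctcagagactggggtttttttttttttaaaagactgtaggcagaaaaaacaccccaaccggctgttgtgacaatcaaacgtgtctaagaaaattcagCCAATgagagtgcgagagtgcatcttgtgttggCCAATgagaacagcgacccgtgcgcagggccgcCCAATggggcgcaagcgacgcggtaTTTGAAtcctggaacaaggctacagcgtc
CENPA: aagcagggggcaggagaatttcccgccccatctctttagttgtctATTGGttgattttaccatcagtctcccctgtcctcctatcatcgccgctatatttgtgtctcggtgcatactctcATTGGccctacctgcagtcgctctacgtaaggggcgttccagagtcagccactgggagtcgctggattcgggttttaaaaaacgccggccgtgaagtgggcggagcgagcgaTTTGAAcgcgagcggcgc
GINS2: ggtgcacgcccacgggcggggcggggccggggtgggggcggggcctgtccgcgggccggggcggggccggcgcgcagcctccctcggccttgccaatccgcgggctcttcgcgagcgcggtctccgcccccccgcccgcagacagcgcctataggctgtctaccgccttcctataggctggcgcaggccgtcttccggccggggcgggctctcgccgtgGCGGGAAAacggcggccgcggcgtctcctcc

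Both senescent states stood below the quiescent state for mitotic genes, in a direct test of senescent against quiescent libraries. Irradiated cells were below quiescent cells in 48 of the 52 genes (9.7% of all genes tested were called lower in that comparison), with a median log2 difference of -1.81. Etoposide-treated cells were below in 49 of the 52 (20.6% of all genes tested), with a median of -2.47. Both comparisons share the quiescent libraries. For CCNB2, irradiated minus quiescent was -1.64 (adjusted p = 1.06e-05) and etoposide minus quiescent -2.0 (adjusted p = 7.27e-07). For TOP2A the differences were -2.04 (adjusted p = 9.77e-06) and -2.43 (adjusted p = 8.46e-07). LMNB1, the B-type lamin often used to tell senescent cells apart, was lower in quiescent than in cycling cells, at 82.6 and 69.6 CPM in cycling and 30.7, 42.1 and 32.5 CPM in quiescent cells (log2 fold change -1.12 ± 0.15, adjusted p = 0.000639), and its irradiated minus quiescent difference was -2.42 (adjusted p = 5.59e-07) and its etoposide minus quiescent difference -3.03 (adjusted p = 3.87e-08).

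**Figure D2:**
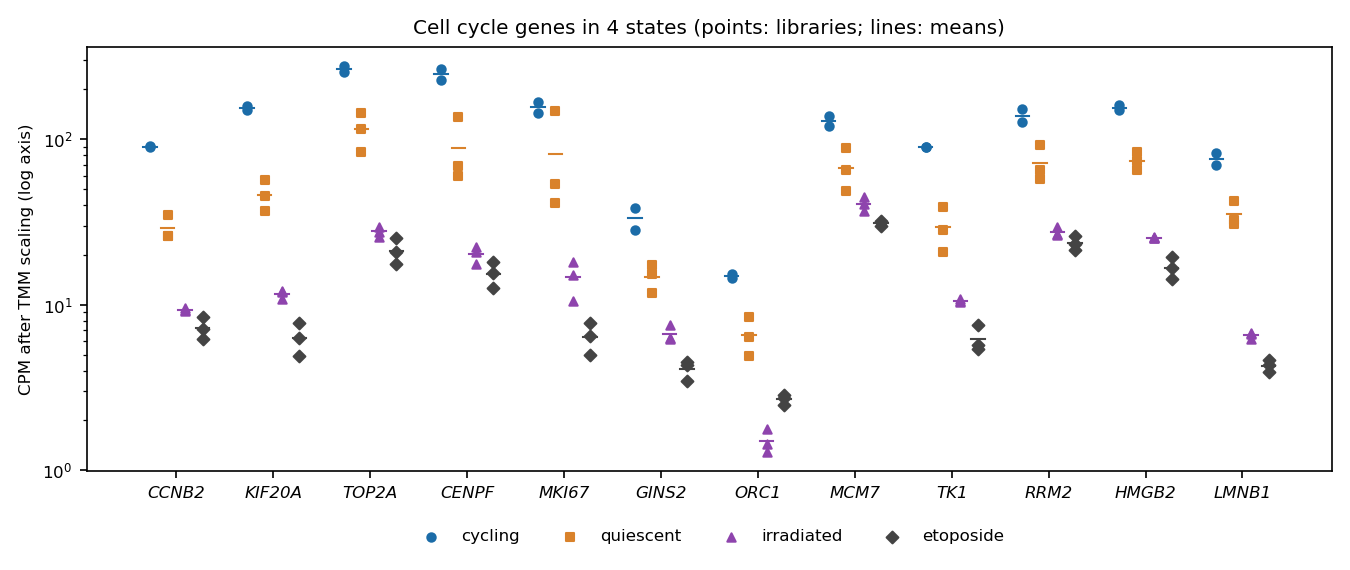
Level in CPM (log axis) of selected cell cycle genes in each RNA-seq library of cycling, quiescent, irradiated and etoposide-treated cells, 1 point per library. For CCNB2, TOP2A and LMNB1 the quiescent points lie below both cycling points, and the irradiated and etoposide-treated points lie lower still.

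Genes of DNA synthesis fell less and less uniformly than those of mitosis. Of 40 replication genes, 20 (5 without cycling library 1, 12 without cycling library 2 and 13 without quiescent library 1) were called lower and none higher (median -0.62). ORC1, the subunit of the origin recognition complex that is made in G1, stood at 15.4 and 14.5 CPM in cycling and 4.89, 8.37 and 6.36 CPM in quiescent cells (log2 fold change -1.19 ± 0.21, adjusted p = 0.00267). GINS2 (-1.17 ± 0.19) and GINS4 (-0.97 ± 0.14), subunits of the replicative helicase, and UHRF1, which keeps DNA methylation at the fork (-1.01 ± 0.23), fell too. MCM7, of the helicase core, was at 137 and 119.8 CPM in cycling and 64.5, 88.1 and 48.3 CPM in quiescent cells (log2 fold change -0.94 ± 0.19, adjusted p = 0.00454). PCNA, the sliding clamp, was not called, at 134 and 107 CPM in cycling and 88.8, 85.6 and 99 CPM in quiescent cells (log2 fold change -0.40 ± 0.14, adjusted p = 0.0771). Nucleotide synthesis had 8 of 30 genes called lower (5 without cycling library 1) and none higher (median -0.31). The lower genes included TK1, thymidine kinase (-1.61 ± 0.22), DUT, which keeps uracil out of DNA (-0.88 ± 0.16), and RRM2, of ribonucleotide reductase (-0.95 ± 0.19). SHMT2 (0.03, adjusted p = 0.912) and MTHFD2 (0.13, adjusted p = 0.645), of mitochondrial folate metabolism and among the most counted of the list, were not called. The calls of UHRF1, MCM7 and RRM2 ended without cycling library 1 (adjusted p from 0.0624 to 0.0753) and that of UHRF1 without cycling library 2 (adjusted p = 0.0619).

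Some chromatin and repair genes fell, and most were not called. Of 25 histone and HMG genes, 8 were lower (3 without cycling library 1 and 14 without quiescent library 2) and 1 higher (median -0.52). H2AZ1, the replacement histone H2A.Z, was at 584 and 476 CPM in cycling and 204, 249.7 and 205 CPM in quiescent cells (log2 fold change -1.27 ± 0.18, adjusted p = 0.000842). HMGB2 (-1.06 ± 0.15) and HMGN2 (-0.96 ± 0.10), which bend DNA and loosen nucleosomes, fell, while HMGA1 (-0.18 ± 0.18, adjusted p = 0.568) and the cycle-independent histone gene H3-3B (-0.12 ± 0.13, adjusted p = 0.599) were not called. Histone and HMG genes have near-identical copies, and reads shared between copies were not counted. In DNA repair, 11 of 32 genes were lower (1 without cycling library 1, 5 without cycling library 2 and 5 without quiescent library 1) and none higher (median -0.38). They were led by members of the Fanconi anaemia and homologous recombination pathways, which act in S phase: FANCD2 (-1.19 ± 0.21), RAD51AP1 (-1.31 ± 0.26), FANCI (-0.96 ± 0.20), XRCC2 (-0.94 ± 0.25) and BRCA2 (-0.92 ± 0.28). The end-joining genes XRCC5 (0.02, adjusted p = 0.935) and XRCC6 (-0.19, adjusted p = 0.278), which act in any phase, were not called. The calls of RAD51AP1, FANCI, XRCC2 and BRCA2 ended without cycling library 1 (adjusted p from 0.0527 to 0.223) and that of BRCA2 without cycling library 2 (adjusted p = 0.141). Those of XRCC2 and BRCA2 ended without quiescent library 1 (adjusted p from 0.056 to 0.0748).

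The nuclear envelope changed beyond LMNB1. Of 13 genes of the lamina and its partners, 7 were lower and 1 higher (median -0.69). SUN2, an inner nuclear membrane protein that links the lamina to the cytoskeleton, was at 67.9 and 72.6 CPM in cycling and 11.8, 25.8 and 21.1 CPM in quiescent cells (log2 fold change -1.84 ± 0.24, adjusted p = 0.000578). LBR, the lamin B receptor, was at 74.8 and 66.3 CPM in cycling and 14.7, 26.8 and 32.7 CPM in quiescent cells (log2 fold change -1.51 ± 0.24, adjusted p = 0.00137). SUN1 (-1.14 ± 0.20), LEMD2 (-0.87 ± 0.14) and LMNB2 (-0.69 ± 0.15) were also lower, SYNE1, the giant nesprin that binds SUN proteins outside the nucleus, was higher (0.66 ± 0.15), and LMNA, the A-type lamin gene, was not called (-0.14 ± 0.15, adjusted p = 0.592). The calls of LMNB2 and SYNE1 ended without cycling library 1 (adjusted p from 0.0654 to 0.109) and that of SYNE1 without cycling library 2 (adjusted p = 0.0538).

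Genes that restrain the cycle rose in part. Of 34 CDK inhibitors and arrest genes, 11 (5 without cycling library 1 and 7 without cycling library 2) were called higher and 3 lower (median 0.47). CDKN2B, which encodes the CDK4 and CDK6 inhibitor p15, was at 42.9 and 40.6 CPM in cycling and 104, 93.7 and 114 CPM in quiescent cells (log2 fold change 1.31 ± 0.14, adjusted p = 0.000218). GAS7, a growth arrest-specific actin regulator, was at 20.8 and 27 CPM in cycling and 68.9, 60.8 and 61.2 CPM in quiescent cells (log2 fold change 1.42 ± 0.18, adjusted p = 0.000478). TXNIP, a thioredoxin inhibitor that limits glucose uptake, was at 78.8 and 104 CPM in cycling and 276, 189.5 and 197 CPM in quiescent cells (log2 fold change 1.28 ± 0.19, adjusted p = 0.000933). The groups were apart for each of the 3, as for every gene called higher and for 20.6% of all genes tested. CDKN2C, which encodes the related inhibitor p18 and is itself a target of E2F, was lower (-1.15 ± 0.18), as was GAS6, the ligand of AXL (-0.62 ± 0.19). CDKN2A, the gene of p16 and ARF, was at 14.1 and 14.5 CPM in cycling and 37, 24.2 and 19.6 CPM in quiescent cells (log2 fold change 0.92 ± 0.22, adjusted p = 0.014). CDKN1A, the gene of p21, was not called, at 774 and 823 CPM in cycling and 1232, 1143 and 841 CPM in quiescent cells (0.43 ± 0.15, adjusted p = 0.0726), and was called higher without quiescent library 3 (0.57, adjusted p = 0.00677). CDKN1B, the gene of p27, whose protein is known to be set mostly after transcription, was not called either, at 74.9 and 79.9 CPM in cycling and 77.9, 61.7 and 88.2 CPM in quiescent cells (-0.03 ± 0.16, adjusted p = 0.934). The calls of GAS6 and CDKN2A ended without cycling library 1 (adjusted p from 0.117 to 0.232) and those of GAS6 and CDKN2A without cycling library 2 (adjusted p from 0.0879 to 0.116). That of GAS6 ended without quiescent library 1 (adjusted p = 0.113) and that of GAS6 without quiescent library 3 (adjusted p = 0.0965).

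Of 29 G1 regulators, 3 were higher and 7 lower (2 without cycling library 1; median -0.13). Among the D-type cyclins, which carry growth signals to CDK4 and CDK6, CCND2 and CCND1 were called higher and CCND3 was not. CCND2 was at 45.2 and 47.6 CPM in cycling and 129.7, 109 and 112 CPM in quiescent cells (log2 fold change 1.34 ± 0.13, adjusted p = 0.000188), and CCND1 at 895 and 781 CPM in cycling and 1309, 1306 and 995 CPM in quiescent cells (log2 fold change 0.52 ± 0.14, adjusted p = 0.0255). CDK6 was higher (0.42 ± 0.13), while CDK4 was not called (-0.04 ± 0.13, adjusted p = 0.869). The later-acting genes were lower, namely CDK2 (-0.78 ± 0.12), its partners CKS1B (-0.96 ± 0.16) and CKS2 (-0.85 ± 0.16), and the activator E2F1 (-0.98 ± 0.19). Of 24 targets of p53, 8 were higher (2 without cycling library 1 and 5 without cycling library 2) and 1 lower (median 0.36). TP53INP1, a stress-induced partner of p53, was at 78.1 and 82.4 CPM in cycling and 173, 172 and 154 CPM in quiescent cells (log2 fold change 1.05 ± 0.11, adjusted p = 0.000218). ZMAT3 (0.94 ± 0.13), an RNA-binding p53 effector, TIGAR (1.0 ± 0.20), which lowers glycolytic flux, SESN2 (0.68 ± 0.14), which senses leucine, BTG2 (0.92 ± 0.22), an antiproliferative factor, MDM2 (0.41 ± 0.11), the ligase that degrades p53, and the kinase PLK2 (0.50 ± 0.15) also rose. The calls of CCND1, CDK6, CKS2, E2F1, TIGAR, SESN2, BTG2, MDM2 and PLK2 ended without cycling library 1 (adjusted p from 0.0673 to 0.345) and those of CCND1, CDK6, BTG2, MDM2 and PLK2 without cycling library 2 (adjusted p from 0.0549 to 0.246). Those of CCND1 and PLK2 ended without quiescent library 1 (adjusted p from 0.067 to 0.0938), those of CCND1 and CDK6 without quiescent library 2 (adjusted p from 0.063 to 0.0805) and those of CDK6 and PLK2 without quiescent library 3 (adjusted p from 0.0744 to 0.0963).

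A second large set of falls lay outside the cell cycle, in genes of the secretory route and of membranes. Of 32 ER chaperone and unfolded protein response genes, 15 were lower (5 without cycling library 1 and 7 without cycling library 2) and none higher (median -0.60; -1.11, -0.47 and -0.40 in quiescent libraries 1, 2 and 3 against the cycling mean). DNAJB11, a co-chaperone of BiP, was at 37.4 and 38 CPM in cycling and 10.5, 17 and 22.4 CPM in quiescent cells (log2 fold change -1.18 ± 0.24, adjusted p = 0.00542). CALR, calreticulin, was at 896 and 767 CPM in cycling and 276, 518 and 548 CPM in quiescent cells (log2 fold change -0.89 ± 0.24, adjusted p = 0.0208). In both genes quiescent library 1 held the lowest value. SDF2L1 (-1.14 ± 0.21), the oxidase ERO1A (-1.15 ± 0.21), the translocon subunit SEC61A1 (-1.02 ± 0.19), the disulfide isomerase PDIA6 (-1.05 ± 0.25) and the lectin chaperone CANX (-0.56 ± 0.16) were lower, and SEC23A, of the COPII coat that buds from the ER on the cytosolic side, was not called (0.10 ± 0.17, adjusted p = 0.762). Collagen processing had 11 of 25 genes lower (3 without cycling library 1, 2 without cycling library 2 and 7 without quiescent library 1) and none higher (median -0.60). Its members included SERPINH1, the collagen chaperone HSP47 (-0.94 ± 0.20), the prolyl 3-hydroxylases P3H1 (-0.90 ± 0.25) and P3H3 (-1.33 ± 0.21), P4HB (-0.65 ± 0.19), PPIB (-0.55 ± 0.15), PCOLCE2 (-1.61 ± 0.37) and the propeptide-cutting ADAMTS3 (-0.90 ± 0.28). The calls of CALR, PDIA6, CANX, P3H1, P4HB, PPIB, PCOLCE2 and ADAMTS3 ended without cycling library 1 (adjusted p from 0.0779 to 0.215) and those of CALR, PDIA6, CANX, SERPINH1, P3H1, P4HB, PPIB and ADAMTS3 without cycling library 2 (adjusted p from 0.0637 to 0.252). Those of CANX, P4HB, PPIB and ADAMTS3 ended without quiescent library 1 (adjusted p from 0.0572 to 0.124), those of CANX and ADAMTS3 without quiescent library 2 (adjusted p from 0.0565 to 0.0913) and that of P4HB without quiescent library 3 (adjusted p = 0.0631).

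Transporters and channels fell as well. Of 48 on the list, 19 were lower (11 without cycling library 2) and 1 higher (median -0.40; -0.76, -0.30 and -0.31 in quiescent libraries 1, 2 and 3). ATP1B1, the beta subunit of the sodium pump, was at 26.2 and 26.5 CPM in cycling and 5.15, 10.1 and 12.7 CPM in quiescent cells (log2 fold change -1.50 ± 0.26, adjusted p = 0.00216). SLC2A1, the glucose transporter GLUT1, was at 71.7 and 86.3 CPM in cycling and 17.2, 39.8 and 34 CPM in quiescent cells (log2 fold change -1.38 ± 0.28, adjusted p = 0.00485). The water and glycerol channel AQP3 (-1.49 ± 0.22) and the 2 parts of an ATP-sensitive potassium channel, KCNJ8 (-1.45 ± 0.22) and ABCC9 (-1.43 ± 0.20), were lower, and the intracellular channel gene CLIC4 (0.12 ± 0.14, adjusted p = 0.605) was not called. In glycolysis, 6 of 32 genes were lower (3 without cycling library 1 and 3 without cycling library 2) and none higher. The falls were led by membrane transporters, the lactate carriers SLC16A3 (-1.80 ± 0.27) and SLC16A1 (-1.16 ± 0.24) and the glucose carrier SLC2A3 (-0.76 ± 0.15), with LDHA (-0.65 ± 0.18) and ENO1 (-0.48 ± 0.14) falling less and GAPDH (-0.25 ± 0.13, adjusted p = 0.228) and PKM (0.04 ± 0.17, adjusted p = 0.909) not called. The calls of SLC2A3, LDHA and ENO1 ended without cycling library 1 (adjusted p from 0.0719 to 0.269) and those of SLC2A1, LDHA and ENO1 without cycling library 2 (adjusted p from 0.0508 to 0.131). That of ENO1 ended without quiescent library 1 (adjusted p = 0.0765) and those of LDHA and ENO1 without quiescent library 3 (adjusted p from 0.0574 to 0.0845).

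Whole families were then picked by symbol, after their values were seen. Of 197 solute carriers outside the SLC25 family, 86 (43.7%) were lower and 1 higher (median -0.67). Most of these proteins sit in the plasma membrane or in other membranes that are made at the ER. Of 41 SLC25 carriers, most of which sit in the inner membrane of mitochondria, 1 was lower and none higher (median 0.05). Of 176 TMEM genes, 65 (36.9%) were lower and 3 higher (median -0.55). Without cycling library 1 the lower calls were 39 solute carriers and 19 TMEM genes, and without cycling library 2 they were 44 and 23. The median difference from the cycling mean was negative in each quiescent library, at -0.79, -0.48 and -0.53 for the solute carriers in libraries 1, 2 and 3. Of 18 integrins, which are surface receptors, 4 were lower (2 without either cycling library in turn) and none higher. Their median was -0.11, and -0.79, -0.23 and 0.24 in quiescent libraries 1, 2 and 3. Several other families had few calls. Of 46 genes of complex I subunits (NDUF), 1 was lower (4 without quiescent library 1) and none higher (median -0.04). Whether membrane location divides the families was not tested. Of 82 cytosolic ribosomal protein genes, 1 was lower and none higher (4 higher without quiescent library 2). Of 48 proteasome genes 1 was lower, of 52 translation initiation factor genes 2 were higher and 1 lower, and of 77 mitochondrial ribosomal protein genes none was called.

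**Figure D3:**
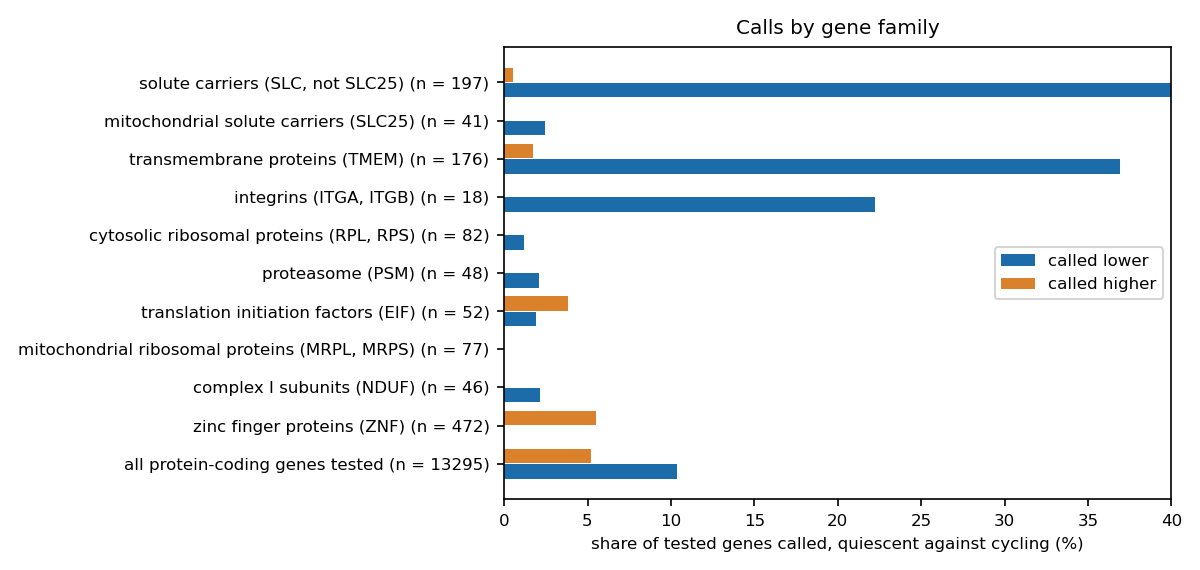
Share of genes called lower and called higher in quiescent cells (percent of the genes tested) for families picked by symbol and for all protein-coding genes tested. Solute carriers outside SLC25 (43.7% lower) and TMEM genes (36.9% lower) stand above the 10.4% of all genes, while ribosomal, proteasome and SLC25 genes stand below it. The axis ends below 43.7%, so the bar of the solute carriers is cut at the edge and its full length is not drawn.

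Enzymes of sterol and fatty acid synthesis fell in part. Of 34 cholesterol genes, 14 were lower (8 without cycling library 2) and none higher (median -0.51). INSIG1, which holds back the sterol sensor SCAP and is itself induced when sterols are low, was at 270.0 and 252 CPM in cycling and 84.8, 101 and 89.3 CPM in quiescent cells (log2 fold change -1.51 ± 0.12, adjusted p = 7.31e-05). DHCR7 (-1.25 ± 0.23), a reductase late in the pathway, fell, as did the sterol exporter ABCG1 (-1.63 ± 0.37). FDPS (0.25 ± 0.12, adjusted p = 0.181) and FDFT1 (0.10 ± 0.14, adjusted p = 0.719), earlier enzymes of the same pathway, were not called. Of 36 genes of fatty acid metabolism and storage, 9 were lower and 3 higher. The desaturase SCD was at 1167 and 1300.1 CPM in cycling and 442, 653 and 529 CPM in quiescent cells (log2 fold change -1.19 ± 0.16, adjusted p = 0.000775), and FADS1 (-1.19 ± 0.14), FADS2 (-1.23 ± 0.18) and the acyltransferase AGPAT2 (-1.16 ± 0.19) fell with it. ACLY, the cytosolic enzyme that makes acetyl-CoA, was not called (0.03 ± 0.14, adjusted p = 0.908), and FABP3, a fatty acid-binding protein, was higher (1.83 ± 0.18). The call of ABCG1 ended without cycling library 2 (adjusted p = 0.142).

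The amino acid and ATF4 program split. Its transporters fell: SLC7A5 (-1.37 ± 0.23) and SLC3A2 (-0.85 ± 0.16), which together import leucine, SLC1A5 (-0.85 ± 0.18), which imports glutamine, and SLC38A2 (-0.79 ± 0.16). DDIT3, the stress factor CHOP, rose, with 41.4 and 39.6 CPM in cycling and 72.1, 66.4 and 69.3 CPM in quiescent cells (log2 fold change 0.77 ± 0.14, adjusted p = 0.00262), and ATF4 itself was not called (0.20 ± 0.11, adjusted p = 0.231). Over the list, 5 of 31 tested genes were called higher and 4 lower (median log2 fold change 0.15). Among tRNA synthetases 2 of 22 were higher, WARS1 (0.49 ± 0.11) and SARS1 (0.33 ± 0.10), and none lower. The calls of SLC38A2, WARS1 and SARS1 ended without cycling library 1 (adjusted p from 0.058 to 0.118) and those of SLC1A5, WARS1 and SARS1 without cycling library 2 (adjusted p from 0.0734 to 0.333). That of SARS1 ended without quiescent library 1 (adjusted p = 0.109), that of SARS1 without quiescent library 2 (adjusted p = 0.0541) and that of SARS1 without quiescent library 3 (adjusted p = 0.0745).

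Lysosomal genes were mostly lower where they changed and autophagy genes mostly higher. Of 49 lysosomal genes, 12 were lower (1 without cycling library 1, 4 without cycling library 2 and 7 without quiescent library 1) and 4 higher (0 without cycling library 1, 0 without cycling library 2 and 2 without quiescent library 2; median -0.20). The glycosidase GUSB (-0.99 ± 0.21), the cathepsins CTSB (-0.89 ± 0.22) and CTSL (-0.93 ± 0.20) and the tetraspanin CD63 (-0.98 ± 0.19) fell, PSAP was not called (-0.30 ± 0.23, adjusted p = 0.436), and CTSK, a cathepsin that cuts collagen, rose (1.29 ± 0.31). Of 34 autophagy genes, 6 were higher (2 without cycling library 1 and 2 without cycling library 2) and 1 lower (median 0.20). GABARAPL1, an ATG8 protein that coats autophagosomes, was at 168 and 183 CPM in cycling and 337, 280.4 and 317 CPM in quiescent cells (log2 fold change 0.83 ± 0.12, adjusted p = 0.000855). The cargo receptors SQSTM1 (0.59 ± 0.16) and OPTN (0.60 ± 0.13), the mitophagy receptor BNIP3L (0.49 ± 0.12) and WIPI1 (0.67 ± 0.13) rose. ATG9A, the membrane-spanning lipid scramblase of the pathway, was the member that fell (-1.05 ± 0.19). The calls of GUSB, CTSB, CTSL, CD63, CTSK, SQSTM1, BNIP3L and WIPI1 ended without cycling library 1 (adjusted p from 0.0508 to 0.142) and those of CTSB, CTSK, SQSTM1, OPTN and BNIP3L without cycling library 2 (adjusted p from 0.0966 to 0.126). That of SQSTM1 ended without quiescent library 1 (adjusted p = 0.0624) and that of SQSTM1 without quiescent library 2 (adjusted p = 0.0568).

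Collagen genes themselves had few calls. Of 25, 1 was higher (4 without quiescent library 1) and 1 lower (median -0.17, and 0.05 without quiescent library 1). COL1A1 was at 920.2 and 2251 CPM in cycling and 772, 1666 and 1482 CPM in quiescent cells (log2 fold change -0.28 ± 0.45, adjusted p = 0.745), and COL1A2 (-0.31 ± 0.32, adjusted p = 0.58) and COL6A3 (-0.16 ± 0.26, adjusted p = 0.734) were likewise not called. COL14A1, a collagen on the surface of fibrils, rose, with 13.4 and 18.8 CPM in cycling and 33.8, 63.2 and 63 CPM in quiescent cells (log2 fold change 1.73 ± 0.26, adjusted p = 0.00111), and COL13A1, a membrane-spanning collagen, fell (-0.99 ± 0.23). Of 45 matrix glycoproteins and proteoglycans, 2 were higher (15 without quiescent library 1) and 2 lower (median 0.32). Besides FMOD, the higher gene was MGP, an inhibitor of calcification (0.99 ± 0.28). The lower genes were SPARC, which binds collagen and calcium, at 2182 and 2087 CPM in cycling and 808, 1374 and 1661 CPM in quiescent cells (log2 fold change -0.74 ± 0.22, adjusted p = 0.0352), and the microfibril gene MFAP5, at 0.437 and 0.466 CPM in cycling and 0.0373, 0.0754 and 0 CPM in quiescent cells. FN1, fibronectin, was not called (0.43 ± 0.25, adjusted p = 0.283), and was called higher without quiescent library 1 (0.70, adjusted p = 0.0103). The median of this list in quiescent libraries 1, 2 and 3 was -0.27, 0.44 and 0.46 against the cycling mean. Among 27 matrix proteases and inhibitors, 2 were higher and 4 lower (1 without cycling library 1 and 2 without cycling library 2). PLAUR, the urokinase receptor, fell (-1.13 ± 0.25), as did ADAMTS1 (-0.72 ± 0.14), and MMP2 (0.39 ± 0.25, adjusted p = 0.35) and TIMP1 (-0.04 ± 0.17, adjusted p = 0.901) were not called. The calls of COL13A1, MGP, SPARC, MFAP5 and PLAUR ended without cycling library 1 (adjusted p from 0.0616 to 0.254) and those of COL13A1, MGP, SPARC, MFAP5 and ADAMTS1 without cycling library 2 (adjusted p from 0.0635 to 0.122). That of SPARC ended without quiescent library 2 (adjusted p = 0.0503).

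Contact inhibition is known to hold YAP and TAZ out of the nucleus, and their targets were given as a list. Of 22, 3 were lower (6 without quiescent library 3) and none higher (median -0.14), against 10.4% lower over all genes tested. The lower genes were AXL, a receptor tyrosine kinase, at 591 and 643 CPM in cycling and 127, 273 and 213 CPM in quiescent cells (log2 fold change -1.59 ± 0.22, adjusted p = 0.000806), FJX1, a Golgi kinase (-1.03 ± 0.16), and NT5E, the surface enzyme CD73 (-0.90 ± 0.23). The standard reporters CCN1, at 104 and 74.8 CPM in cycling and 50.9, 83 and 66.3 CPM in quiescent cells (-0.43 ± 0.36, adjusted p = 0.481), and CCN2, at 223 and 191 CPM in cycling and 77, 159 and 206 CPM in quiescent cells (-0.49 ± 0.30, adjusted p = 0.312), were not called, and the groups overlapped in both. In the Hippo pathway, 4 of 24 were higher (0 without cycling library 1 and 0 without cycling library 2), the coactivator WWTR1, which encodes TAZ (0.49 ± 0.12), VGLL4 (0.47 ± 0.11), AMOTL1 (0.50 ± 0.14) and TEAD3 (0.67 ± 0.21), and TEAD4 was lower (-0.66 ± 0.17). The calls of NT5E, WWTR1, VGLL4, AMOTL1, TEAD3 and TEAD4 ended without cycling library 1 (adjusted p from 0.101 to 0.267) and those of NT5E, WWTR1, VGLL4, AMOTL1 and TEAD3 without cycling library 2 (adjusted p from 0.0644 to 0.139). That of TEAD3 ended without quiescent library 1 (adjusted p = 0.0828) and that of TEAD3 without quiescent library 2 (adjusted p = 0.0755).

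Of 41 adhesion and junction genes, 7 were lower (4 without cycling library 1 and 3 without cycling library 2) and 1 higher (6 without quiescent library 1; median -0.03, and 0.18 without quiescent library 1). The laminin receptor subunit ITGA6 was at 86.1 and 74.8 CPM in cycling and 16.3, 39.2 and 32.5 CPM in quiescent cells (log2 fold change -1.46 ± 0.26, adjusted p = 0.00291), and its common partner ITGB1 fell by less (-0.80 ± 0.25). The connexin GJC1 (-1.09 ± 0.17) and the nectins NECTIN2 (-1.07 ± 0.23) and NECTIN3 (-1.09 ± 0.29) fell, VCAM1, a leukocyte adhesion molecule, rose (1.21 ± 0.29), and CD44 was not called (-0.32 ± 0.24, adjusted p = 0.438). In the actin and contractile list, 4 of 36 were higher (0 without cycling library 1 and 1 without cycling library 2) and 1 lower (median 0.32). MYLK (0.55 ± 0.13), LMOD1 (0.50 ± 0.13), CALD1 (0.52 ± 0.14) and MYH10 (0.48 ± 0.14), all of actomyosin, rose, and MYOCD, a coactivator of smooth muscle genes, fell (-1.13 ± 0.32). ACTA2, smooth muscle actin, was not called at 753 and 634 CPM in cycling and 854, 1130.1 and 1658 CPM in quiescent cells (0.81 ± 0.26, adjusted p = 0.0523), nor was ACTB (0.04 ± 0.15, adjusted p = 0.892). ACTA2 was called higher without quiescent library 1 (1.01, adjusted p = 0.0166). Of 8 markers of smooth muscle and pericytes, a list that shares ACTG2, DES and LMOD1 with this one, 3 were higher and 2 lower. They summed to 556 to 565 CPM in cycling and 516 to 749 CPM in quiescent libraries, and none was at 0. Their part in the result was not tested. The calls of ITGB1, NECTIN3, VCAM1, MYLK, LMOD1, CALD1 and MYH10 ended without cycling library 1 (adjusted p from 0.0875 to 0.286) and those of ITGB1, NECTIN2, NECTIN3, VCAM1, LMOD1, CALD1, MYH10 and MYOCD without cycling library 2 (adjusted p from 0.0854 to 0.483). That of MYOCD ended without quiescent library 1 (adjusted p = 0.0781), those of ITGB1, NECTIN3, MYH10 and MYOCD without quiescent library 2 (adjusted p from 0.0585 to 0.0783) and that of CALD1 without quiescent library 3 (adjusted p = 0.0676).

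In TGF-beta and BMP signalling, 8 of 35 genes were lower (2 without cycling library 1, 3 without cycling library 2 and 4 without quiescent library 2) and none higher (median -0.25). FST, follistatin, which traps activins, was at 290.1 and 298 CPM in cycling and 49, 123 and 135 CPM in quiescent cells (log2 fold change -1.52 ± 0.29, adjusted p = 0.00383). ID3 (-1.10 ± 0.19) and ID1 (-1.26 ± 0.23), direct BMP targets that block bHLH factors, and the BMP antagonist GREM1 (-0.74 ± 0.21) were lower. In the WNT pathway, 9 of 29 were lower (3 without cycling library 1 and 5 without cycling library 2) and 2 higher (median -0.44). The antagonist DKK1 was at 55.8 and 45.2 CPM in cycling and 9.26, 20.4 and 24 CPM in quiescent cells (log2 fold change -1.50 ± 0.28, adjusted p = 0.00362), and the antagonists SFRP1 (-0.88 ± 0.16) and DKK3 (-0.89 ± 0.19) and the receptors FZD4 (-1.26 ± 0.20) and FZD5 (-1.23 ± 0.30) fell. The higher genes were AXIN2 (1.25 ± 0.37) and LEF1 (1.52 ± 0.34), both known targets of beta-catenin. The calls of ID1, GREM1, DKK3, FZD5 and AXIN2 ended without cycling library 1 (adjusted p from 0.0632 to 0.335) and those of GREM1, FZD5, AXIN2 and LEF1 without cycling library 2 (adjusted p from 0.0609 to 0.185). That of AXIN2 ended without quiescent library 1 (adjusted p = 0.0649), that of GREM1 without quiescent library 2 (adjusted p = 0.0514) and that of AXIN2 without quiescent library 3 (adjusted p = 0.0582).

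Of 39 growth factors and receptors, 9 were lower (1 without cycling library 1 and 2 without cycling library 2) and 2 higher (median -0.28). ERBB3 (-1.69 ± 0.38), a receptor for neuregulin, and the secreted heparin-binding factor PTN (-1.04 ± 0.27) fell, FGF10, a mesenchymal signal to lung epithelium, rose, with 0.765 and 1.35 CPM in cycling and 4.93, 3.51 and 4.35 CPM in quiescent cells (log2 fold change 2.04 ± 0.65, adjusted p = 0.0481), and PDGFRA was not called, at 251 and 304 CPM in cycling and 146, 216 and 306 CPM in quiescent cells (-0.32 ± 0.23, adjusted p = 0.419). Without quiescent library 3 PDGFRA was called lower (-0.61, adjusted p = 0.0488). IGFBP6, a binding protein that favours IGF2, fell (-1.49 ± 0.18). Of 32 MAPK feedback and immediate early genes, 5 were higher (1 without cycling library 1 and 1 without cycling library 2) and none lower, with SPRY1 (1.29 ± 0.24), DUSP6 (0.90 ± 0.19), ATF3 (0.59 ± 0.15) and ETV1 (0.44 ± 0.14) beside EGR2. Among 36 hormone and GPCR genes, 4 were higher (0 without cycling library 1 and 2 without cycling library 2) and 8 lower (3 without cycling library 1 and 5 without cycling library 2). The lower genes included the angiotensin receptor AGTR1 (-1.36 ± 0.34) and the lysophosphatidic acid receptor LPAR1 (-0.46 ± 0.14) beside OXTR, while the phosphodiesterases PDE1A (1.25 ± 0.30) and PDE5A (0.78 ± 0.16) and the G protein regulator RGS5 (1.78 ± 0.46) rose. The calls of ERBB3, PTN, FGF10, SPRY1, ATF3, ETV1, AGTR1, LPAR1, PDE1A, PDE5A and RGS5 ended without cycling library 1 (adjusted p from 0.0543 to 0.339) and those of ERBB3, PTN, FGF10, DUSP6, ATF3, ETV1, LPAR1, PDE1A and RGS5 without cycling library 2 (adjusted p from 0.0572 to 0.288). Those of FGF10, ETV1 and LPAR1 ended without quiescent library 1 (adjusted p from 0.0667 to 0.12), those of PTN, FGF10 and LPAR1 without quiescent library 2 (adjusted p from 0.0507 to 0.0913) and those of FGF10, ETV1 and RGS5 without quiescent library 3 (adjusted p from 0.0509 to 0.099).

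Metabolic and protective genes were higher in several lists. In alcohol, retinoid and xenobiotic metabolism, 9 of 32 were higher (2 without cycling library 1) and 1 lower (median 0.25). Besides ADH1B and FMO2, RARRES2, which encodes the retinoid-induced chemoattractant chemerin (1.34 ± 0.31), rose, and ALDH1A1, which makes retinoic acid, was at 0.0364 and 0.0518 CPM in cycling and 0.224, 0.754 and 0.282 CPM in quiescent cells and was called higher (adjusted p = 0.02). MGST1, a glutathione transferase of the ER membrane, fell (-0.91 ± 0.21). In the steroid and FOXO-insulin list, 7 of 25 were higher (2 without cycling library 1) and none lower, with IRS2, an adaptor of the insulin receptor that FOXO factors induce (0.84 ± 0.18), TSC22D3, a glucocorticoid-induced factor (0.66 ± 0.14), PIK3R1 (0.63 ± 0.13) and TXNIP. Of 32 antioxidant and iron genes, 7 were higher (3 without cycling library 1 and 3 without cycling library 2) and 1 lower. SOD2, the mitochondrial superoxide dismutase, was at 424 and 453 CPM in cycling and 1583, 1202 and 1150.2 CPM in quiescent cells (log2 fold change 1.58 ± 0.18, adjusted p = 0.000339). The iron exporter SLC40A1 was at 12.5 and 17.2 CPM in cycling and 41.5, 39.2 and 31.4 CPM in quiescent cells (log2 fold change 1.34 ± 0.20, adjusted p = 0.00101), the iron importer TFRC fell (-0.91 ± 0.23), and the ferritin light chain FTL rose (0.70 ± 0.14). SLC40A1 is the 1 solute carrier outside SLC25 that was called higher. The calls of RARRES2, ALDH1A1, IRS2, TSC22D3, PIK3R1, TFRC and FTL ended without cycling library 1 (adjusted p from 0.0661 to 0.188) and those of RARRES2, ALDH1A1, MGST1, PIK3R1 and TFRC without cycling library 2 (adjusted p from 0.0509 to 0.1).

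Immune-linked lists had calls in both directions, beside 5.19% higher and 10.4% lower over all genes tested. Of 34 secretory phenotype and chemokine genes, 6 were higher (2 without cycling library 2) and 3 lower (median 0.37). CCL20 was 1 of the lower genes and had the lowest log2 fold change of the list (-7.08), which went to 0 without cycling library 2. Its call also ended without each quiescent library in turn (adjusted p from 0.0788 to 0.084). CXCL12, a stromal chemokine, was lower, at 51.8 and 66.5 CPM in cycling and 13.4, 17 and 23.3 CPM in quiescent cells (log2 fold change -1.72 ± 0.22, adjusted p = 0.000524), while IL32, SOD2 and VCAM1 were higher. Of 39 interferon-stimulated genes, 9 were higher (1 without cycling library 1 and 3 without cycling library 2) and 1 lower (median 0.31). STAT2, a subunit of the interferon-activated factor ISGF3, was at 126 and 146 CPM in cycling and 233, 236 and 238 CPM in quiescent cells (log2 fold change 0.79 ± 0.11, adjusted p = 0.000735), and IFIT2 (0.72 ± 0.17), GBP2 (0.87 ± 0.21) and IFI44L (1.67 ± 0.43) rose. IFITM1, a membrane protein that blocks viral entry, was the 1 that fell (-1.19 ± 0.23). In MHC class I and complement, 3 of 28 were higher, with C7 (2.96 ± 0.75) and SERPING1, the C1 inhibitor (1.10 ± 0.31), and 3 lower (5 without quiescent library 3), namely CD59, which blocks the complement pore (-1.30 ± 0.19), the peptide transporter gene TAP1 (-0.87 ± 0.23) and B2M (-0.82 ± 0.25). C3 was at 0 and 0.155 CPM in cycling and 0.187, 3.73 and 3.50 CPM in quiescent cells. The calls of IFIT2, GBP2, IFI44L, C7, SERPING1, TAP1, B2M and C3 ended without cycling library 1 (adjusted p from 0.0844 to 0.285) and those of IFIT2, C7, SERPING1, TAP1, B2M and C3 without cycling library 2 (adjusted p from 0.0531 to 0.154). That of B2M ended without quiescent library 1 (adjusted p = 0.104) and those of SERPING1 and B2M without quiescent library 2 (adjusted p from 0.0589 to 0.112).

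The next 2 lists had few calls, beside 5.19% higher and 10.4% lower over all genes tested. In the BCL2 family, 2 of 17 were higher and none lower: the survival gene BCL2, at 7.91 and 7.51 CPM in cycling and 17.1, 13 and 15.5 CPM in quiescent cells (log2 fold change 0.98 ± 0.15, adjusted p = 0.00129), and the death gene BMF (1.33 ± 0.30). MCL1 (0.26 ± 0.11, adjusted p = 0.126) and BAX (-0.26 ± 0.22, adjusted p = 0.488) were not called. Of 47 developmental transcription factors, 4 were higher (2 without cycling library 1) and none lower, with SOX4 (1.17 ± 0.19), FOXP2 (0.97 ± 0.16), RUNX1 (0.84 ± 0.25) and PBX3 (0.47 ± 0.14), while the mesenchymal factors PRRX1 (0.11, adjusted p = 0.633), ZEB1 (0.35, adjusted p = 0.116) and FOXF1 (0.10, adjusted p = 0.687) were not called. ZEB1 was called higher without quiescent library 1 (0.45, adjusted p = 0.0489). The calls of BMF, RUNX1 and PBX3 ended without cycling library 1 (adjusted p from 0.116 to 0.296) and those of BMF, RUNX1 and PBX3 without cycling library 2 (adjusted p from 0.0525 to 0.146). That of PBX3 ended without quiescent library 1 (adjusted p = 0.109) and that of RUNX1 without quiescent library 2 (adjusted p = 0.0958).

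The machinery of gene expression had few calls. None of 59 listed cytosolic ribosomal proteins (median 0.09), 37 mitochondrial ribosomal proteins (median -0.16), 39 proteasome genes (median -0.07) or 38 genes of the TCA cycle and oxidative phosphorylation (median -0.03) was called in either direction. For RPLP0 the fitted log2 fold change was -0.07 ± 0.13, adjusted p = 0.778, for ATP5F1B -0.13 ± 0.12, adjusted p = 0.516 and for PSMD2 -0.21 ± 0.19, adjusted p = 0.504. Counts of ribosomal protein genes can lose reads to near-identical copies. Of 42 translation and mTOR genes, 3 were higher, with PDCD4, which inhibits the helicase eIF4A (0.55 ± 0.15), EIF4EBP2, which holds back the cap-binding protein (0.62 ± 0.13), and EIF4G3 (0.49 ± 0.12). The 1 lower gene, EIF4A1, was at 5.36 and 4.46 CPM in cycling and 1.08, 1.62 and 2.21 CPM in quiescent cells, a level that is uncertain because reads that overlap another gene were not counted, and EEF2 was not called (0.39 ± 0.18, adjusted p = 0.167) except without quiescent library 3 (0.55, adjusted p = 0.0288). Of 43 ribosome biogenesis genes 1 was lower, NHP2 (-0.45 ± 0.14), and of 29 heat shock genes 1 was higher, HSPB7 (1.05 ± 0.29). Splicing and RNA-binding genes had 5 of 34 lower (0 without cycling library 1, 1 without cycling library 2, 2 without quiescent library 2 and 3 without quiescent library 3) and none higher, among them SRSF2 (-0.50 ± 0.15) and SRSF3 (-0.47 ± 0.11). The calls of PDCD4, EIF4EBP2, EIF4G3, NHP2, HSPB7, SRSF2 and SRSF3 ended without cycling library 1 (adjusted p from 0.0793 to 0.279) and those of PDCD4, EIF4EBP2, EIF4G3, NHP2, HSPB7 and SRSF2 without cycling library 2 (adjusted p from 0.0609 to 0.121). Those of PDCD4, HSPB7 and SRSF2 ended without quiescent library 1 (adjusted p from 0.061 to 0.0976), those of NHP2 and SRSF2 without quiescent library 2 (adjusted p from 0.075 to 0.0802) and that of NHP2 without quiescent library 3 (adjusted p = 0.105).

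**Figure D4:**
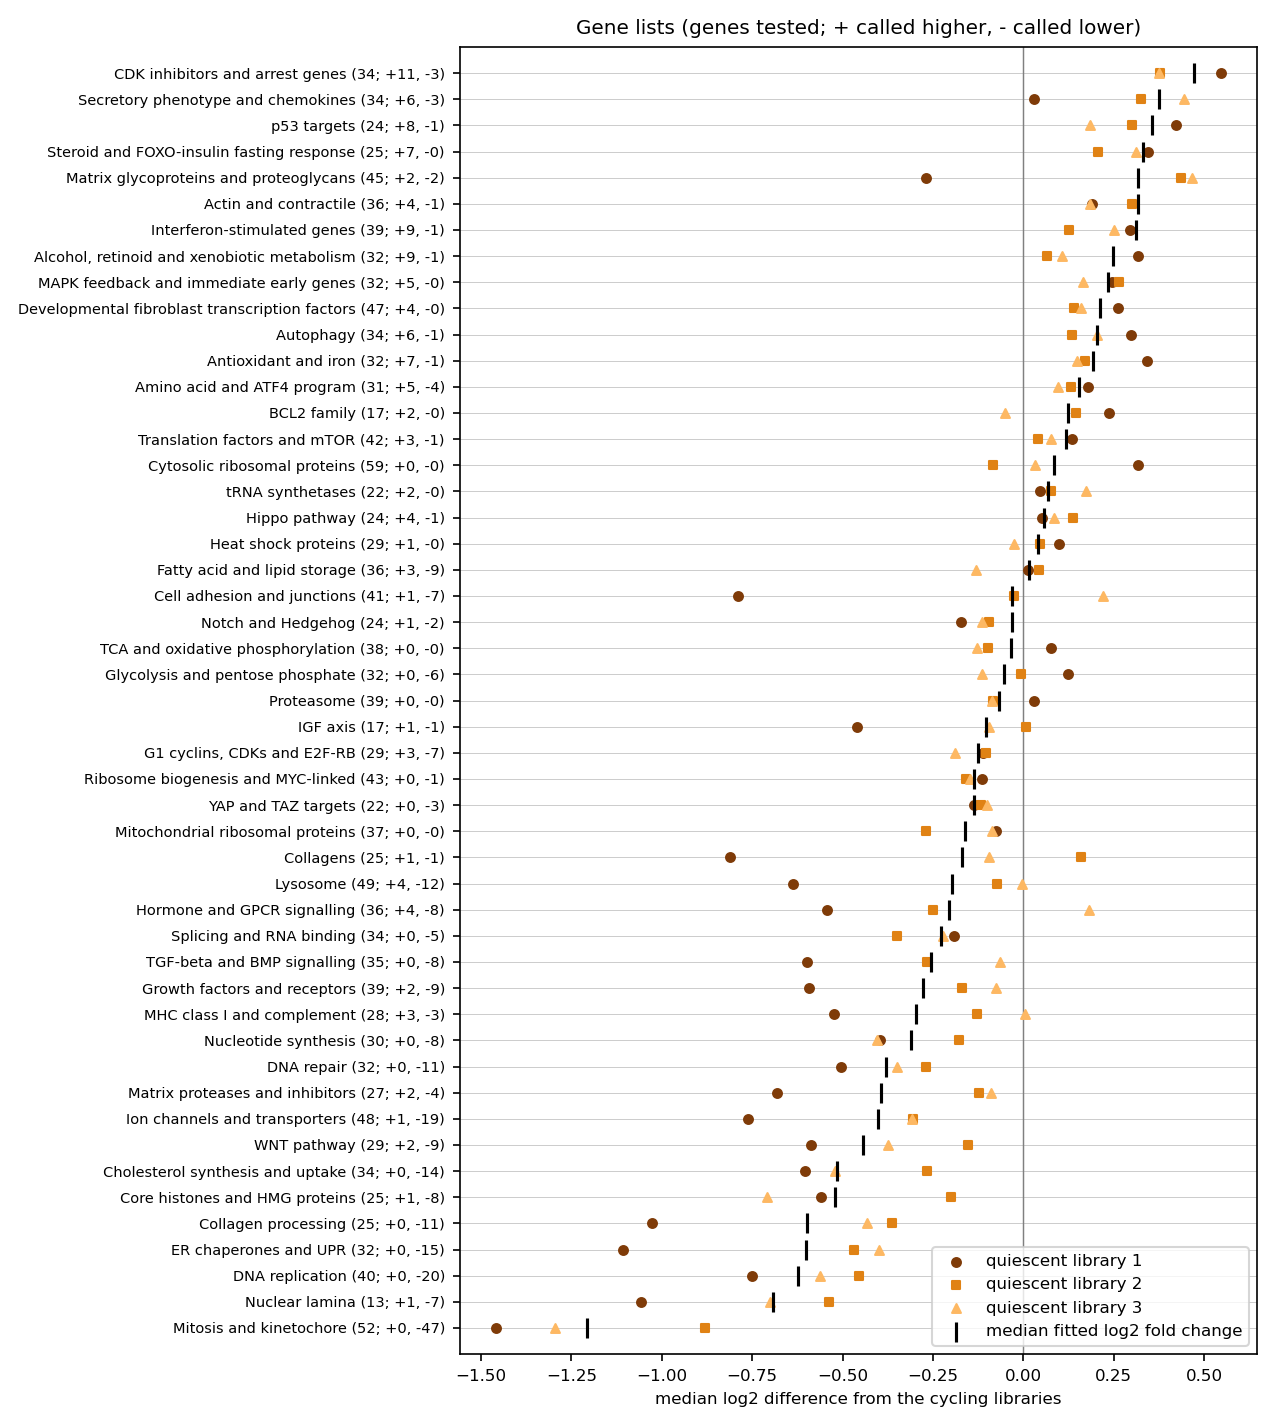
Median log2 fold change (quiescent minus cycling) of each gene list, with the median difference from the cycling mean in each of the 3 quiescent libraries as separate points. Mitosis (-1.21) lies lowest and CDK inhibitors and arrest genes (0.47) highest, and the median over all genes tested is 0.02.

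Ribosome footprints of the same states gave a second readout, given here for a part of the named genes. Each gene given was called in footprints with the sign of its RNA change. These genes therefore do not stand for the named genes as a whole. Footprint libraries (3 of each state) were tested in a fit of their own, in which 29.7% of the genes tested in both assays were called. The labels' protocols describe both kinds of library as prepared from portions of lysate, so footprints are not independent of the RNA. CCNB2 differed by -1.61 (adjusted p = 5.51e-05) in footprints, TOP2A by -0.95 (adjusted p = 0.00255) and LMNB1 by -1.05 (adjusted p = 0.000401). Among rises, the footprint difference of ADH1B was 3.97 (adjusted p = 0.000424), of TNFSF18 4.19 (adjusted p = 0.000451), of FMOD 1.63 (adjusted p = 0.0279) and of CDKN2B 1.32 (adjusted p = 0.00458). Among falls outside the cell cycle it was -2.63 (adjusted p = 0.000244) for OXTR, -2.68 (adjusted p = 0.000521) for GGH, -2.11 (adjusted p = 0.00115) for SUN2, -2.09 (adjusted p = 0.00079) for INSIG1 and -2.60 (adjusted p = 0.000412) for CXCL12. For ER and membrane genes it was -1.40 (adjusted p = 0.00982) for DNAJB11, -1.12 (adjusted p = 0.0195) for CALR, -1.49 (adjusted p = 0.0134) for SLC2A1 and -1.99 (adjusted p = 0.000832) for ATP1B1.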

How the data were processed

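Members and gene lists were chosen with earlier results of these data known. Per the submitters' processing notes, reads were handled with bcl2fastq and STAR 2.7.10b on hg38, and DESeq2 1.36.0 was used. The annotation version is not given in the sources used here. The deposited values are counts of reads per gene from the authors' alignment, with multi-mapping and ambiguous reads outside the gene counts. For RNA-seq the reverse-strand column was taken, since the labels' protocols name a stranded TruSeq kit, and for Ribo-seq the forward-strand column. Summary lines without a gene entered neither library sizes nor tests and held 31.3 to 40.6% unmapped and 9.43 to 33.4% multi-mapping reads in the 5 libraries, and 3.52 to 10.9% of uniquely mapped reads lay outside genes. Symbols came from a gene name table, and 19322 of 62703 gene IDs were protein coding in the RefSeq table (GRCh38.p14).

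The test was that of edgeR 4.0.16, run in R 4.3.3 (filterByExpr, TMM, robust quasi-likelihood F test, Benjamini-Hochberg). The fit held all 13 RNA-seq libraries of 5 states, which share 1 estimate of the spread (8 residual degrees of freedom, biological coefficient of variation 0.159). The 12 Ribo-seq libraries without thapsigargin had a fit of their own. All tests were two-sided. Replicates differed by more than sampling noise (chi-square per degree of freedom 17.7 for the cycling pair and 52.7 to 83.6 for the quiescent pairs). In simulated counts of 12790 genes for quiescent against cycling, 68 of 96 genes changed 2-fold and 98 of 98 changed 4-fold were recovered, with 14 false calls. The simulation gave every gene and state the same spread, although the quiescent pairs differed by more than the cycling pair. These numbers therefore do not give the recovery or the false calls for genes or states of wider spread. Genes are named by a rule: the 12 largest called rises and falls with separated groups and a mean of at least 5 CPM, up to 5 called genes of largest change and the 3 most counted genes of each of 49 lists, and 11 fixed genes. Low-count genes (MFAP5, ALDH1A1, C3) are given by level and call, without a fold change. The 14 alternatives were DESeq2 1.42.0, other scalings, no filter, other library sets, unstranded counts, all gene types, a replicate block and each of the 5 libraries left out.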

Additional observations from a re-analysis of the deposited data

How the results depend on the processing

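None of the 2071 called genes that had a value under an alternative changed sign there, in any of the 14, and CCL20 went to 0 without cycling library 2. Of the 2071, 2059 had a value with only the quiescent and cycling libraries, 2068 without the thapsigargin libraries and 2067 with DESeq2 and with unstranded counts. With only the quiescent and cycling libraries in the fit, 854 genes were called, 224 higher and 630 lower, of which 841 were among the 2071. Leaving out 1 library gave 707 to 2243 calls, 144 to 737 higher and 563 to 1506 lower. The lowest numbers came without cycling library 1 and the highest without quiescent library 3. DESeq2 called 2620 genes and the fit with a replicate block 1836 (523 higher and 1313 lower). The titles give same-numbered libraries only a number in common, and a pairing is not stated. The correlation of their deviations was 0.03 for cycling and quiescent 1 and 0.12 for cycling and quiescent 2. With 2 cycling libraries the deviations mirror each other, so these values cannot decide whether libraries were paired. Upper quartile scaling gave 854 higher and 1303 lower calls, against 690 and 1381. List medians near 0 changed sign under some settings, among them those of adhesion, collagens, the IGF axis, fatty acid metabolism, glycolysis, Notch and Hedgehog, heat shock, ribosomal proteins and oxidative phosphorylation. In simulated counts with the same spread for every gene, 68 of 96 genes changed 2-fold were recovered. Smaller changes were not simulated, so genes not called are not shown to be equal.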

Other observations

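Genes outside the protein-coding set were tested with all gene types in 1 edgeR fit of 16999 genes, of which 732 (4.31%) were called higher and 1465 (8.62%) lower in quiescent cells. The classes and genes named here were chosen after their values were seen, libraries were not left out in turn in this fit, and CPM here is per 1e6 of all gene counts. Small nucleolar RNAs, which guide the modification of rRNA, fell: 16 of 36 were called lower and none higher, with a median log2 fold change of -2.33. Their summed level was 541 and 863 CPM in the cycling libraries and 112, 231 and 43.9 CPM in the quiescent libraries. Of 23 small nuclear RNAs, most of them spliceosomal, 11 were lower and none higher, with a summed level of 145 and 128 CPM in the cycling libraries and 48.6, 52.7 and 24.9 CPM in the quiescent libraries. RMRP, the RNA of the RNase MRP enzyme that cuts rRNA precursors, was at 3378 and 3060.3 CPM in the cycling libraries and 773, 1035 and 406 CPM in the quiescent libraries (-2.11 ± 0.30, adjusted p = 0.00076). SNORA73B was at 113 and 129.6 CPM in the cycling libraries and 9.76, 19.5 and 8.77 CPM in the quiescent libraries (-3.24 ± 0.36, adjusted p = 0.000197), and SNHG3, the host transcript of a snoRNA of the same family, was at 65 and 55.1 CPM in the cycling libraries and 12.9, 17.7 and 12.7 CPM in the quiescent libraries (-2.05 ± 0.17, adjusted p = 4.92e-05). Long noncoding RNAs as a class had 25 of 1335 higher and 49 lower. RN7SL1, the RNA of the signal recognition particle that brings ribosomes to the ER, was not called and stood at 52490.0 and 51714 CPM in the cycling libraries and 70471, 66297 and 22110.0 CPM in the quiescent libraries (0.05 ± 0.34, adjusted p = 0.955), so quiescent library 3 was low and libraries 1 and 2 were above both cycling libraries. Small RNAs are recovered in part by this kind of library, and their counts can differ with fragment size.

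Transcripts of the mitochondrial genome summed to 3338 and 5741 CPM in the cycling libraries and 587, 1869 and 1557 CPM in the quiescent libraries. Of 22 tested, 4 were called lower and none higher. MT-CO1, a subunit of cytochrome oxidase, was at 1345 and 1784 CPM in the cycling libraries and 163, 719.7 and 683 CPM in the quiescent libraries (-1.58 ± 0.44, adjusted p = 0.0319), with quiescent library 1 the lowest. Nuclear genes of the same organelle had few calls, as given for the SLC25 carriers and mitochondrial ribosomal proteins. Of 472 zinc finger (ZNF) genes, 26 (5.51%) were called higher and none lower, with 4 higher without cycling library 1 and 5 without cycling library 2. Their median log2 fold change was 0.18, against 5.19% and 10.4% called higher and lower and a median of 0.02 over all protein-coding genes tested.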
